A study of Mus musculus with 63 samples.

Results

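Of the genes of the circadian clock, 6 were followed through every ovary and pituitary library of the study: the activators Arntl, Clock and Npas2, the activating nuclear receptor Rora, and Nr1d1 and Nr1d2, which encode the repressors REV-ERB alpha and REV-ERB beta. They were taken by gene name from the deposited expression tables of the 2 tissues and make up 6 of the 34745 genes listed in each. All 6 passed the filter on low counts in both tissues, among 17766 genes tested in ovary and 17001 in pituitary. The tissues came from female C57BL/6 mice, with no altered allele or agent named in the labels, that had either gone through chronic unpredictable mild stress (CUMS, weeks of mild stressors in changing order) or served as controls. The labels give ages of 2 and 6 months and durations of 8 and 12 weeks, so each tissue has the sets 2M-8W, 6M-8W, 2M-12W and 6M-12W, each with a control and a stressed group. Every group holds 4 libraries, except the 6M-12W control ovaries with 3. Neither the hour at which tissue was taken nor the estrous stage, the sequencing batch or the moment at which age was counted is given in the sources used here, and a difference in any of them that follows the groups cannot be told apart from the groups. Nothing states that the libraries of a group come from separate animals, so p-values measure only the spread between these samples, which may be technical.

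BMAL1, the product of Arntl, pairs with CLOCK or with its paralogue NPAS2, and the pair binds E-box sequences and switches on genes that include Per, Cry, Dbp and the REV-ERB genes. The REV-ERB proteins bind response elements in Arntl, Npas2 and Clock and repress them through the NCoR and HDAC3 corepressor, whereas ROR alpha activates through the same elements. Activators and repressors therefore run in antiphase over the day, and a tissue taken at a single hour shows a single point of that cycle. Pituitary hormone cells and the granulosa and luteal cells of the ovary each hold such a clock, which is known for its part in the timing of gonadotropin release and ovulation.

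Total counts per library were 12536371 to 28777668 in the 31 ovaries and 13514270 to 24924584 in the 32 pituitaries, and a member was counted 5 to 6497 times in a library. The defining markers of each tissue were high in it. The 8 pituitary markers, Gh, Prl and Pomc among them, summed to 164200 to 236900 CPM (the standard depth-scaled count, here of the library total) in pituitaries and to 1.07 to 1558 CPM in ovaries. The 2M-12W control ovaries had 59.9 to 1558 CPM of them, and no other ovary group went above 118.3. The part of these markers in the ovarian results was not tested. The 9 ovary markers, Inha, Foxl2 and Star among them, summed to 2931 to 6577 CPM in ovaries and to 45.7 to 102.7 CPM in pituitaries, and none was at 0 in any ovary. The 2 oviduct markers, Ovgp1 and Foxj1, summed to 3.28 to 1997 CPM in ovaries, with 5.48 to 1997 in the 2M-8W stressed and 58.3 to 340.6 in the 2M-12W controls, none of them at 0, and their part in the ovarian results was not tested. Among the 6M-12W control pituitaries, libraries 3 and 4 had been seen to stand apart in earlier work on these data. Several results that rest on them are therefore also given without them. Mitochondrial genes took 4.19, 5.86, 10 and 6.19% of the counts of control pituitaries 1 to 4 of that set, 4.34 to 6.44% of its stressed pituitaries and 2.74 to 5.35% of the pituitaries of the other sets. In bulk tissue, fewer cells of a type and less RNA per cell cannot be told apart.

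The tables place the members on mouse build GRCm38. Arntl (ENSMUSG00000055116) spans chromosome 7 from 113207465 to 113314122 on the plus strand, Clock (ENSMUSG00000029238) chromosome 5 from 76209868 to 76304792 on the minus strand, and Npas2 (ENSMUSG00000026077) chromosome 1 from 39193731 to 39363236 on the plus strand. Rora (ENSMUSG00000032238) spans chromosome 9 from 68653786 to 69388246 on the plus strand, Nr1d1 (ENSMUSG00000020889) chromosome 11 from 98767932 to 98775333 and Nr1d2 (ENSMUSG00000021775) chromosome 14 from 18204054 to 18239127, both on the minus strand. RefSeq's promoter windows (build GRCm38.p6), which run from 250 bases before a gene's start to 50 bases past it, were matched by symbol to all 6 members and give 9 windows. Both strands were searched for CACGTG, the E-box bound by BMAL1 pairs, and for TAGGTCA, the core of the element shared by REV-ERB and ROR receptors, and the motifs do not overlap each other. Of all 32851 windows, 7.15% hold CACGTG and 2.61% hold TAGGTCA. None of the members' windows has CACGTG, and TAGGTCA is in 1, the second Arntl window, where it begins 30 bases past the start. Only these exact letters were searched, and only in these windows. Elements with other letters or elsewhere in a gene would be missed, so a window without a match may still hold such an element. The Arntl window, at chr7:113207261-113207560 on the plus strand, is shown with TAGGTCA in capitals. Beside it stand the windows of the other members that changed with stress in the pituitary, Npas2 (chr1:39194022-39194321, plus strand), Nr1d1 (chr11:98775328-98775627, minus strand) and Nr1d2 (chr14:18239057-18239356, minus strand), in which these letters do not occur. All are written 5′ to 3′ on the gene's strand.
Arntl: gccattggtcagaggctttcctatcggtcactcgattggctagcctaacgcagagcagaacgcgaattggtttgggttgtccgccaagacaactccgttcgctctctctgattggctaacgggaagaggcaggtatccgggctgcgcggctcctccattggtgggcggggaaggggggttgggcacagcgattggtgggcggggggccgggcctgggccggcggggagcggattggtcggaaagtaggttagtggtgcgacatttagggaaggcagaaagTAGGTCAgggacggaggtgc
Npas2: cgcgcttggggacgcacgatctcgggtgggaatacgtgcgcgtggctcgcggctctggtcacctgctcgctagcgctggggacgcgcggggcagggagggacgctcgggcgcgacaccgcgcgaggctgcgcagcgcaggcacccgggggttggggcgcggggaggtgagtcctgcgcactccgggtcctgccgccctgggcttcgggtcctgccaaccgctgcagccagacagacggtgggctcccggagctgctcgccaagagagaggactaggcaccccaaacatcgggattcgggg
Nr1d1: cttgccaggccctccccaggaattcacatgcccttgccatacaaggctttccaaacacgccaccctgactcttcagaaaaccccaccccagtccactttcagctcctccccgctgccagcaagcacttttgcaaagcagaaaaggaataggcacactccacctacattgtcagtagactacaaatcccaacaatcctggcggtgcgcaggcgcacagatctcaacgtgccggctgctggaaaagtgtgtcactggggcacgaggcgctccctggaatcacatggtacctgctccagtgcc
Nr1d2: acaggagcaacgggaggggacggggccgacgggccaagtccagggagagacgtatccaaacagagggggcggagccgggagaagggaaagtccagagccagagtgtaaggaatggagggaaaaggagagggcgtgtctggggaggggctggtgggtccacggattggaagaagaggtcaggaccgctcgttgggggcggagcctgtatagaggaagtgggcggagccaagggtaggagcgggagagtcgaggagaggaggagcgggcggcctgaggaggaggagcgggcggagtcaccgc

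Levels can be set side by side between genes only per length, for which the deposited FPKM values, which are divided by gene length and library depth, were used. In both tissues the repressor genes led and Npas2 came last. Median FPKM in pituitary were 42.8 for Nr1d1, 39.3 for Nr1d2, 10.1 for Arntl, 3.94 for Rora, 3.24 for Clock and 0.654 for Npas2. The medians in ovary ran in the same order, at 28.9, 26.2, 8.29, 4.82, 3.81 and 1.12 FPKM. The members differed widely in how far they varied over the libraries. From the lowest to the highest pituitary Npas2 spanned 37.0-fold in CPM, with only 5 to 21 counts in the 6M-12W stressed pituitaries, Nr1d1 7.59-fold, Arntl 4.18-fold and Nr1d2 3.71-fold, against 2.36-fold for Clock and 1.85-fold for Rora. In ovary Npas2 spanned 8.02-fold, Rora 4.12-fold, Nr1d1 3.88-fold, Arntl 3.50-fold, Nr1d2 2.49-fold and Clock 2.08-fold. Clock thus varied little in either tissue, while Rora had the narrowest range of the 6 in pituitary and the second widest in ovary.

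In the stressed pituitary the activators Arntl and Npas2 were lower and both REV-ERB genes higher than in controls, while Clock and Rora did not pass the test. With the 4 within-set folds averaged, 2 of the 6 members fell and 2 rose at an adjusted p under 0.05, where 6.44% of all genes passed. In single sets 4 members passed in 2M-8W (2 higher, 2 lower, against 0.424% of all genes), 4 in 2M-12W (2 and 2, 0.582%), 4 in 6M-8W (2 and 2, 4.7%) and 3 in 6M-12W (1 higher, 2 lower, 0.276%). The median averaged log2 fold of the 6 was -0.125, against 0.001 over all genes, since members moved both ways. That these genes change was known from earlier results of these data, and the values that follow describe how they did so library by library. How many other genes had arms without overlap was not counted, in pituitary or in ovary.

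Arntl, whose product BMAL1 is the common partner of CLOCK and NPAS2, was at 56.0, 48.1, 51.4 and 47.1 CPM (here and below scaled by TMM factors) in libraries 1 to 4 of the 2M-8W control pituitaries and at 15.8, 18.7, 20.6 and 20.6 in the stressed ones. In 2M-12W the controls had 50.8, 50.8, 55.1 and 63.4 CPM and the stressed 22.9, 17.9, 17.6 and 22.4. In both sets every stressed library lay far below every control. The 6M-8W controls had 45.4, 43.4, 49.9 and 40.8 CPM and the stressed 18.4, 27.2, 27.3 and 29.4, and stressed library 1 was the lowest. In 6M-12W the controls had 34.3, 32.8, 33.6 and 30.9 CPM and the stressed 16.5, 16.1, 17.7 and 15.2. The arms did not overlap there either, although these controls were already below those of the other sets. The log2 folds (± SE) were -1.42 ± 0.12 (adjusted p = 1.5e-08) in 2M-8W, -1.45 ± 0.12 (adjusted p = 4.05e-09) in 2M-12W, -0.81 ± 0.12 (adjusted p = 5.35e-05) in 6M-8W and -1.01 ± 0.12 (adjusted p = 2.7e-05) in 6M-12W. Among all 17001 pituitary genes Arntl ranked 1 by p for this average (-1.17 ± 0.06, adjusted p = 3.32e-14).

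Npas2, which encodes the alternative partner of BMAL1, had the larger fall on a lower level. Its control pituitaries had 10.1, 12.8, 8.61 and 8.74 CPM in 2M-8W and the stressed 2.38, 1.45, 1.11 and 2.0. In 2M-12W the values were 9.09, 7.52, 7.10 and 10.3 CPM in controls and 3.29, 2.25, 1.65 and 1.84 in stressed pituitaries. The highest stressed library of these sets, at 3.29 CPM, was far below the lowest control. In 6M-8W the controls had 8.26, 10.6, 9.67 and 9.30 CPM and the stressed 2.26, 1.70, 1.61 and 1.93. In 6M-12W they had 4.04, 4.01, 3.74 and 3.15 and 0.887, 1.22, 0.345 and 1.47 CPM. In no set did the arms overlap, and the highest stressed 6M-12W library was below the lowest control of every set. The folds were -2.56 ± 0.24 (adjusted p = 1.17e-07), -1.91 ± 0.23 (adjusted p = 1.11e-05), -2.34 ± 0.24 (adjusted p = 3.46e-07) and -1.94 ± 0.27 (adjusted p = 0.000214) in 2M-8W, 2M-12W, 6M-8W, 6M-12W in turn, and -2.18 ± 0.12 (adjusted p = 1.9e-13) as their mean. When the 6M-12W groups were fitted alone, the fold of Npas2 was -1.94 and that of Nr1d2 0.60 as in the fit of all groups, but neither passed (adjusted p = 0.112 and 0.136).

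Clock, the third activator, did not pass in any set. Its pituitary levels were 117.7, 58.6, 87.6 and 60.7 CPM in 2M-8W controls and 59.0, 51.9, 53.0 and 49.8 in the stressed, with 3 of 4 stressed libraries below all controls. The same count of 3 of 4 was found in 2M-12W and 6M-8W, and 0 of 4 in 6M-12W. The mean fold of -0.28 ± 0.10 missed the threshold in edgeR (adjusted p = 0.0822) and passed with DESeq2 (0.0465). It also passed on leaving out 2M-8W control 2 (adjusted p = 0.0441), 6M-12W control 1 (0.048) or 6M-8W stressed 3 (0.0317), with folds of -0.31 to -0.33. The receptor gene Rora lay between 43.5 and 80.4 CPM in all 32 pituitaries. Its mean fold was 0.03 ± 0.05 (adjusted p = 0.83), and its arms overlapped in every set.

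**Figure D1:**
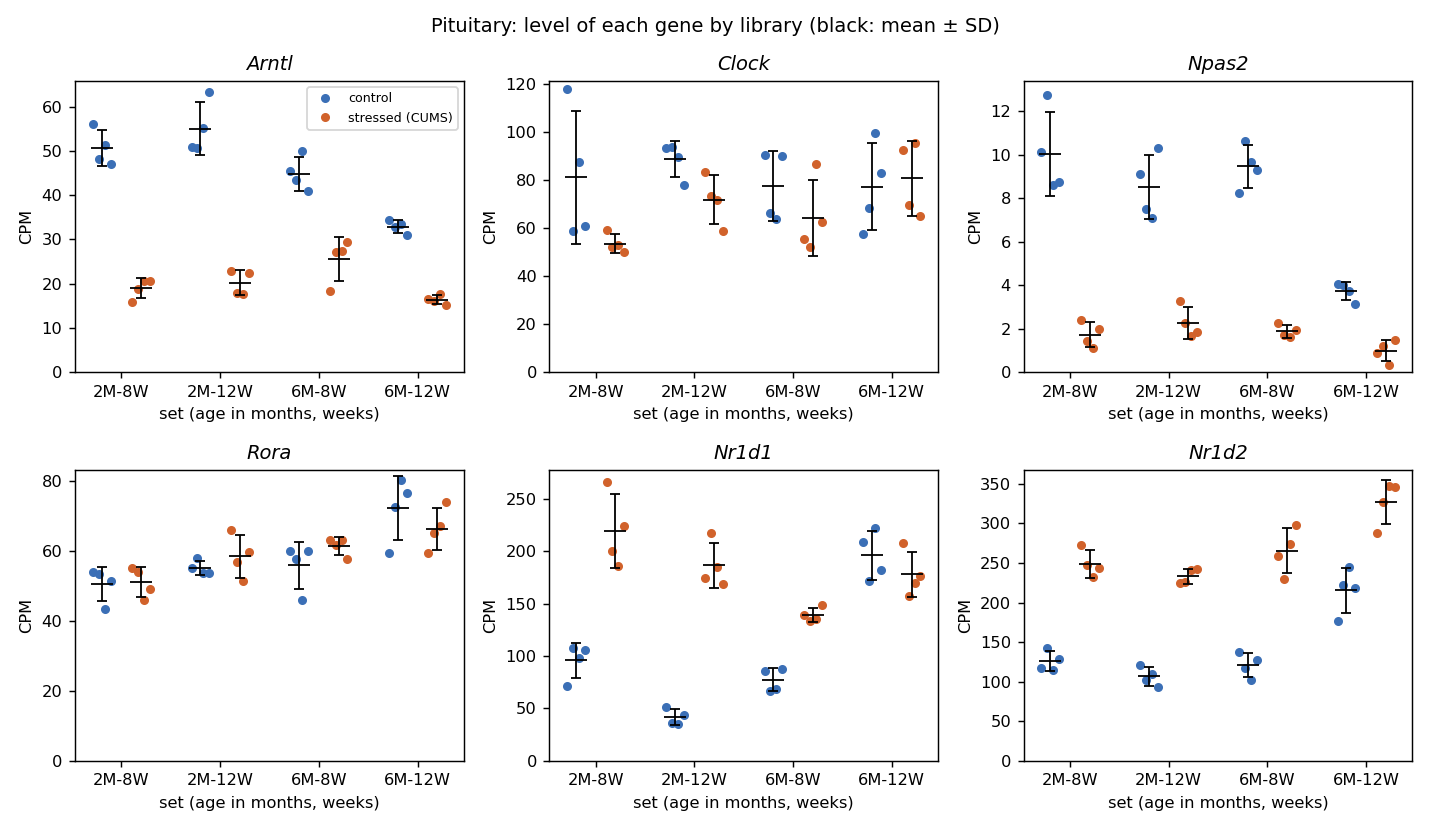
CPM (linear axis from 0) of the 6 genes in each of the 32 pituitary libraries, by set, with controls in blue and stressed libraries in orange and the group mean ± SD in black. Arntl and Npas2 are lower and Nr1d2 higher in the stressed libraries of every set, while the 6M-12W controls of Nr1d1 lie level with the stressed libraries.

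Nr1d1, the gene of REV-ERB alpha, rose in 3 sets, from control levels that differed between the sets. In 2M-8W the controls had 71.5, 107.6, 98.5 and 106.3 CPM and the stressed 266.4, 200.2, 186.4 and 224.3. In 2M-12W the controls had 51.4, 36.2, 35.1 and 44.0 CPM and the stressed 174.8, 217.6, 184.9 and 169.0. These were the lowest controls of the 4 sets, and both sets of arms were far apart. In 6M-8W the controls had 86.0, 67.0, 68.7 and 87.5 CPM and the stressed 139.1, 133.2, 135.7 and 148.9. In 6M-12W the controls had 208.9, 171.7, 222.2 and 182.7 CPM and the stressed 207.6, 157.8, 169.9 and 176.9. Only in this set did the arms overlap. The folds in the 4 sets were 1.19 ± 0.14 (adjusted p = 2.68e-06), 2.16 ± 0.14 (adjusted p = 3.04e-11), 0.85 ± 0.14 (adjusted p = 0.000186) and -0.14 ± 0.13 (adjusted p = 0.755), in the order 2M-8W, 2M-12W, 6M-8W, 6M-12W. The 6M-12W fold was lower than the mean of the other 3 by -1.54 ± 0.16 (adjusted p = 1.46e-06), which made Nr1d1 the 1 member called in this comparison, where 0.0118% of all genes were. Without control pituitaries 3 and 4 the difference was -1.51 ± 0.18 (adjusted p = 8.55e-05). It was computed with the same 6M-12W controls whose levels are compared between sets further on, so it is not separate from that comparison. With DESeq2, 2 members passed, since Nr1d2 did as well (-0.49, adjusted p = 0.0366).

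Nr1d2, the gene of REV-ERB beta, rose in all 4 sets. In 2M-8W the controls had 117.1, 142.7, 114.6 and 128.7 CPM and the stressed 272.9, 247.2, 231.8 and 243.8. In 2M-12W they had 121.7, 102.4, 109.8 and 93.8 and 224.4, 226.1, 241.2 and 242.1 CPM. The 8 stressed pituitaries of these sets lay between 224.4 and 272.9 CPM, above all their controls. In 6M-8W the controls had 137.0, 117.3, 102.0 and 127.8 CPM and the stressed 259.0, 230.2, 274.1 and 298.3. In 6M-12W they had 177.1, 221.7, 245.6 and 218.4 and 288.0, 326.7, 347.9 and 345.9 CPM. No arms overlapped, and both 6M-12W means, 215.7 and 327.1 CPM, were the highest of their arm. The folds were 0.99 ± 0.10 (adjusted p = 5.26e-07), 1.13 ± 0.10 (adjusted p = 3.31e-08), 1.13 ± 0.10 (adjusted p = 5.64e-08) and 0.60 ± 0.10 (adjusted p = 0.00371), in the same order, and 0.96 ± 0.05 (adjusted p = 7.54e-14) as the mean. Without the 6M-12W control pituitaries 3 and 4, that set's folds were -1.04 for Arntl, -2.05 for Npas2 and 0.70 for Nr1d2, and all passed.

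In the ovary Arntl and Npas2 fell as in the pituitary but less, while Rora and the repressor genes followed no single direction over the sets. As the mean of the 4 sets 4 members passed, with Arntl, Npas2 and Rora lower and Nr1d2 higher, where 20.3% of all genes passed. In single sets 3 members passed in 2M-8W (all lower, against 6.26% of all genes), 3 in 2M-12W (1 up and 2 down, 6.74%), 1 in 6M-8W (up, 1.12%) and 1 in 6M-12W (down, 11.4%). The median fold of the 6 in the mean of the sets was -0.34, against 0.008 over all genes. These single-set counts depended on the fit. With only a set's own groups fitted, 0 members passed in 2M-8W and in 2M-12W (3 and 3 at an unadjusted p under 0.05). Of all genes, only 2 and 0 passed in these 2 fits. In 6M-12W such a fit gave 4 members, with 2914 of all genes passing. The 4 were Rora, Npas2, Nr1d1 and Nr1d2, all lower in the stressed ovaries.

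Ovarian Arntl was at 36.4, 37.5, 26.3 and 33.8 CPM in 2M-8W controls and at 17.1, 16.4, 18.2 and 25.2 in the stressed ovaries. In 2M-12W the values were 32.5, 47.8, 32.0 and 42.3 CPM in controls and 26.1, 17.8, 19.6 and 22.1 in the stressed. Stressed ovaries were below all controls in both sets, with stressed library 4 of 2M-8W just under control 3. In 6M-8W the controls had 41.1, 32.2, 30.4 and 40.3 CPM and the stressed 24.8, 22.7, 25.5 and 23.9. In 6M-12W the 3 controls had 16.5, 19.7 and 15.2 CPM and the stressed 13.6, 14.0, 13.7 and 15.1. The arms did not overlap there by a small margin, at the lowest levels of any set. The folds were -0.80 ± 0.15 (adjusted p = 0.011), -0.85 ± 0.15 (adjusted p = 0.00149), -0.57 ± 0.15 (adjusted p = 0.0545) and -0.28 ± 0.16 (adjusted p = 0.27) in 2M-8W, 2M-12W, 6M-8W, 6M-12W in turn, and -0.63 ± 0.08 (adjusted p = 5.48e-06) as the mean. The 6M-8W fold lies at the threshold: it passed with DESeq2 (adjusted p = 0.0151) and on leaving out 2M-12W stressed 1 or control 2 or 3, 2M-8W stressed 4 or control 3, or 6M-8W control 3 (adjusted p = 0.0379 to 0.0469).

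Npas2 in ovary had 10.2, 9.30, 5.69 and 9.69 CPM in 2M-8W controls and 6.09, 3.52, 2.00 and 3.77 in the stressed. In 2M-12W it had 7.56, 11.2, 7.91 and 8.99 CPM in controls and 5.33, 4.76, 4.06 and 3.94 in the stressed. The arms were apart in 2M-12W, while in 2M-8W stressed library 1 lay above control 3. In 6M-8W the controls had 13.9, 5.55, 6.64 and 16.1 CPM and the stressed 5.04, 7.07, 6.54 and 4.58. In 6M-12W the controls had 3.31, 5.75 and 4.72 CPM and the stressed 2.70, 2.99, 2.43 and 2.65. Controls 1 and 4 of 6M-8W were high and the other controls lay among the stressed, whereas the 6M-12W arms did not overlap. The folds were -1.17 ± 0.30 (adjusted p = 0.0234), -0.98 ± 0.29 (adjusted p = 0.0415), -0.86 ± 0.29 (adjusted p = 0.135) and -0.78 ± 0.32 (adjusted p = 0.111) in the order used for Arntl, and -0.95 ± 0.15 (adjusted p = 8.56e-05) as the mean. The 2M-8W call was lost without stressed 3 or control 2 or 4 of that set (adjusted p = 0.0578 to 0.081). The 2M-12W call was lost without stressed 2, 3 or 4 or control 2 or 4 of that set or 6M-12W stressed 1, 3 or 4 (adjusted p = 0.0502 to 0.157), and with no filter on low counts (0.0542).

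Rora, the receptor gene that competes with the REV-ERB genes for the same elements, had ovarian levels that overlapped between the arms in 3 of the 4 sets. The 2M-8W controls had 103.1, 78.8, 43.1 and 94.1 CPM and the stressed 32.4, 33.8, 43.5 and 40.7. In 2M-12W the controls had 73.1, 104.7, 85.6 and 89.2 CPM and the stressed 107.8, 39.0, 46.4 and 45.2. Control 3 of 2M-8W lay among the stressed, and stressed 1 of 2M-12W lay above every control. In 6M-8W the controls had 110.5, 74.4, 71.9 and 117.8 CPM and the stressed 133.2, 116.1, 120.1 and 57.8. In 6M-12W the controls had 66.4, 97.2 and 54.2 CPM and the stressed 33.8, 34.3, 33.2 and 35.3. The 6M-12W stressed ovaries were nearly identical and below all 3 controls, while the 6M-8W arms overlapped. The folds were -1.09 ± 0.29 (adjusted p = 0.0287), -0.57 ± 0.29 (adjusted p = 0.237), 0.19 ± 0.28 (adjusted p = 0.802) and -1.09 ± 0.31 (adjusted p = 0.022), and -0.64 ± 0.15 (adjusted p = 0.00273) as the mean. The 2M-8W call was lost without stressed 1 or 3 or control 1, 2 or 4 of that set (adjusted p = 0.0552 to 0.0943), and the 6M-12W call without control 1 (0.0519) or 2 (0.173). Without stressed 1 the 2M-12W fold became -1.0 and passed (adjusted p = 0.017). Markers moved with the 6M-12W arms: the 9 ovary markers summed to 3674 to 4244 CPM in controls and to 5152 to 6127 in stressed ovaries, the 2 fat markers to 21.5 to 27.5 and 49.6 to 70 CPM, and the 8 pituitary markers to 38.7 to 48.0 and 79.5 to 118.3 CPM. No ovary or fat marker was at 0 in these libraries. Mitochondrial genes took 5.2 to 6.27% of the counts in these controls and 4.34 to 4.56% in the stressed. The part of these values in the result was not tested.

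**Figure D2:**
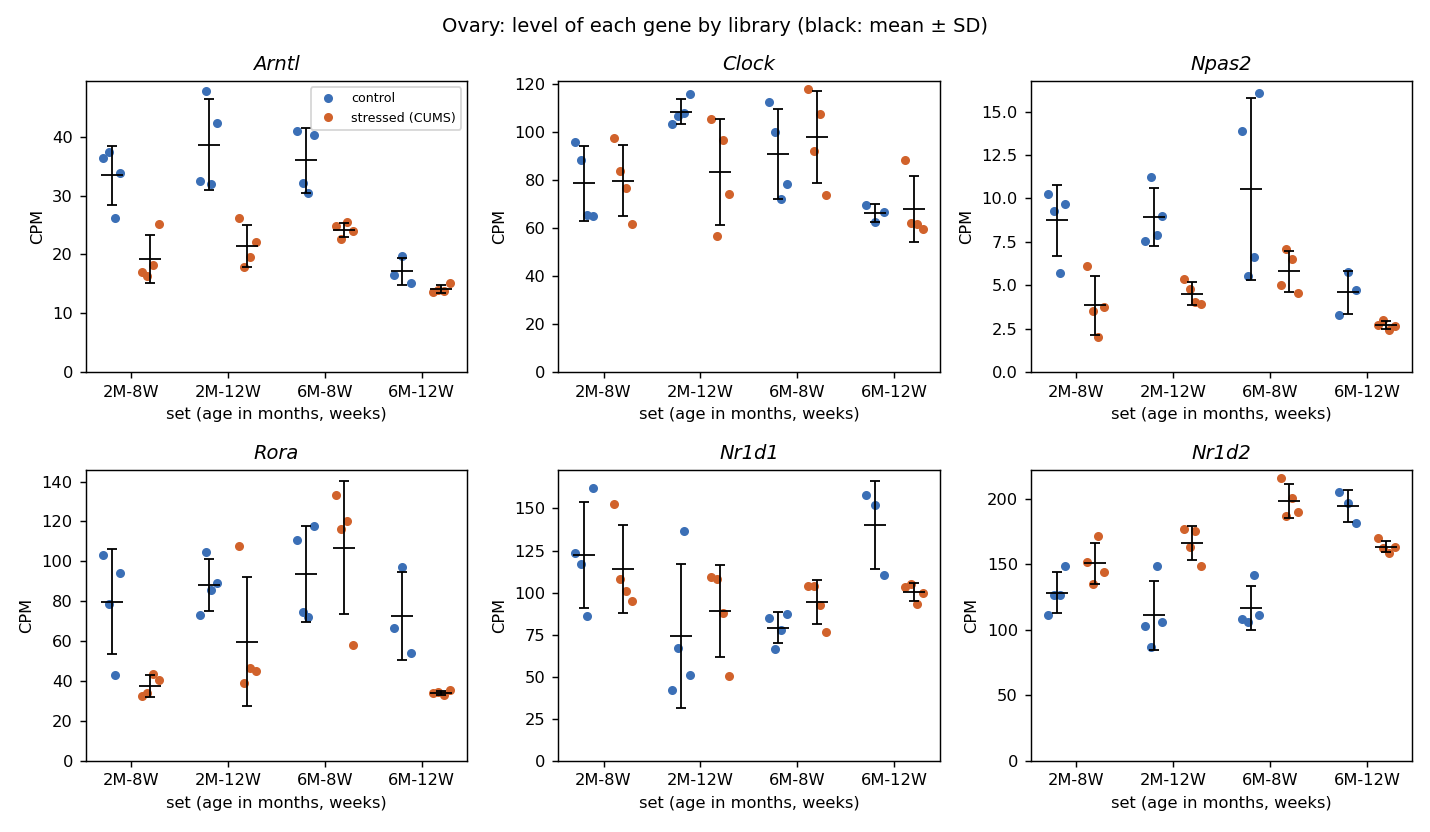
CPM (linear axis from 0) of the 6 genes in each of the 31 ovary libraries, by set, with controls in blue and stressed libraries in orange and the group mean ± SD in black. Arntl is lower in the stressed ovaries of every set, Nr1d2 is higher in those of 2M-12W and 6M-8W and lower in those of 6M-12W, and the arms of Rora overlap except in 6M-12W.

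The ovarian repressor genes split by set. Nr1d2 had 102.9, 86.8, 148.5 and 106.3 CPM in 2M-12W controls and 176.7, 163.6, 175.2 and 148.6 in the stressed ovaries. In 6M-8W it had 108.0, 106.0, 141.8 and 111.2 CPM in controls and 215.8, 186.7, 200.8 and 190.3 in the stressed. The stressed ovaries were above all controls in both sets, just so in 2M-12W. In 2M-8W the controls had 111.0, 126.8, 126.8 and 149.0 CPM and the stressed 152.0, 135.0, 172.1 and 144.2, with 2 of 4 above all controls. In 6M-12W the order was turned, with 205.6, 197.1 and 181.5 CPM in controls and 169.9, 162.3, 159.1 and 163.4 in the stressed, all below the controls. The folds were 0.23 ± 0.12 (adjusted p = 0.237), 0.58 ± 0.12 (adjusted p = 0.00481), 0.77 ± 0.12 (adjusted p = 0.00359) and -0.25 ± 0.13 (adjusted p = 0.203) in 2M-8W, 2M-12W, 6M-8W, 6M-12W in turn, with a mean of 0.33 ± 0.06 (adjusted p = 0.000391). The 6M-12W fold was lower than the mean of the other 3 by -0.78 ± 0.14 (adjusted p = 0.0145), the 1 member called in this comparison, where 2.44% of all genes were. It was lost without 6M-12W control 1 (adjusted p = 0.0734) or 2 (0.0526). With the 6M-12W groups fitted alone, the fall of Nr1d2 in that set passed (adjusted p = 0.0268).

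With all libraries in the model of all groups, ovarian Nr1d1 passed in no set. Its levels ran from 41.8 to 162.3 CPM in controls and from 50.5 to 152.7 CPM in stressed ovaries, and its mean fold was -0.02 ± 0.14 (adjusted p = 0.946). In 6M-12W the controls had 158.3, 152.1 and 110.5 CPM and the stressed 103.3, 105.1, 93.1 and 99.8, all below the controls (-0.48 ± 0.28, adjusted p = 0.277). With the 6M-12W groups fitted alone, this fall passed (adjusted p = 0.0284). Leaving out control 3 of 2M-12W, at 136.6 CPM the highest of its group, moved that set's fold from 0.26 to 0.75 (adjusted p = 0.0416). Clock lay between 56.8 and 117.9 CPM in all ovaries, with a mean fold of -0.05 ± 0.09 (adjusted p = 0.726).

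**Figure D3:**
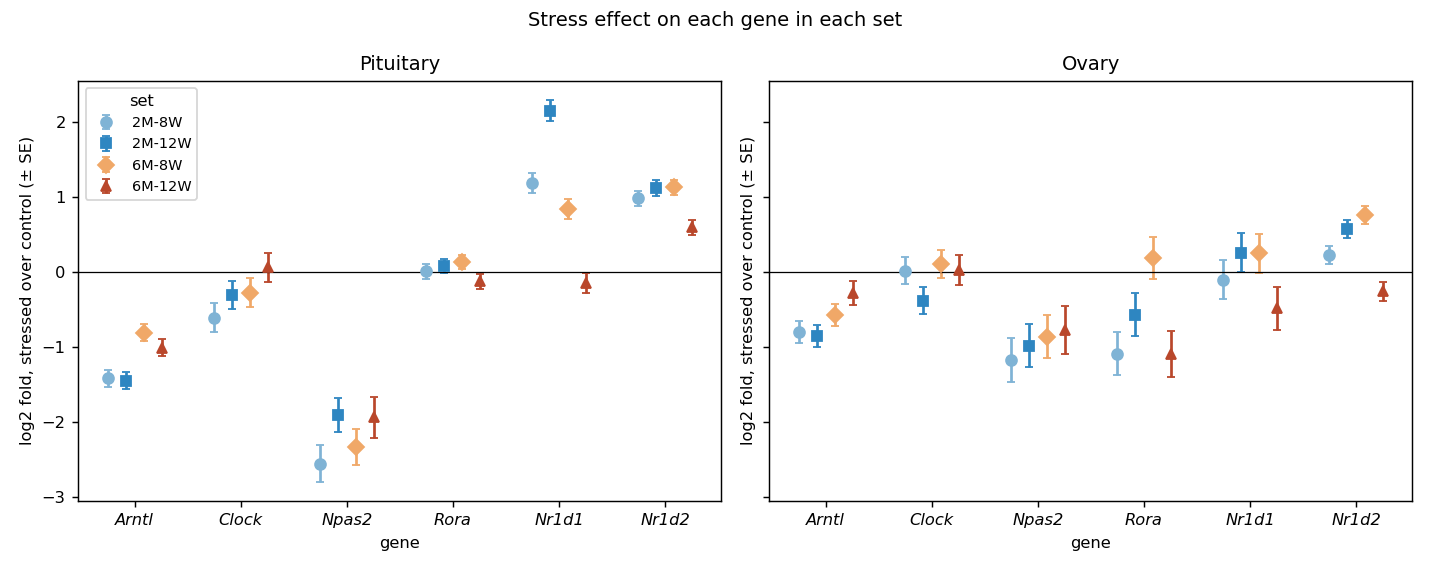
Log2 fold of stressed over control libraries with its SE for each of the 6 genes, in pituitary and ovary, 1 symbol per set, with a line at 0. In pituitary Arntl and Npas2 lie below 0 and Nr1d2 above 0 in every set, whereas Nr1d1 lies above 0 in 3 sets and at -0.14 in 6M-12W.

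Controls of the 4 sets did not share one level of these genes. In the pituitary the 6M-12W controls, set against the mean of the other 3 control groups, were lower in Arntl and Npas2 and higher in Nr1d1, Nr1d2 and Rora. That made 5 of the 6 members called (3 higher, 2 lower), where 41.3% of all genes were, so a large share of other genes differed in the same contrast. Nr1d1 was at 171.7 to 222.2 CPM in these 4 controls and at 35.1 to 107.6 CPM (median 70.1) in the 12 others. Its difference of 1.54 ± 0.10 (adjusted p = 5.63e-11), or 2.90-fold, ranked 1 by p among all pituitary genes. Nr1d2 was at 177.1 to 245.6 CPM against 93.8 to 142.7 (median 117.2), a difference of 0.87 ± 0.08 (adjusted p = 2.95e-08). The repressor genes of the 6M-12W controls thus lay wholly above those of the other controls. Arntl was at 30.9 to 34.3 CPM against 40.8 to 63.4 (median 50.3), a difference of -0.60 ± 0.10 (adjusted p = 1.89e-05). Npas2 was at 3.15 to 4.04 CPM against 7.10 to 12.8 (median 9.20), a difference of -1.32 ± 0.20 (adjusted p = 7.05e-06). Arntl and Npas2 thus lay wholly below. How many other genes were separated in the same way was not counted. Rora had 59.5, 72.5, 80.4 and 76.6 CPM in the 4 controls, of which 3 lay above the range of 43.5 to 59.9 in the others (0.43 ± 0.08, adjusted p = 7.79e-05). Clock, at 57.7 to 99.6 CPM against 58.6 to 117.7, gave -0.10 ± 0.16 (adjusted p = 0.662).

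Without the 6M-12W control pituitaries 3 and 4 the differences were 1.49 ± 0.13 (adjusted p = 1.65e-07) for Nr1d1, 0.76 ± 0.10 (adjusted p = 6.52e-05) for Nr1d2, -0.58 ± 0.13 (adjusted p = 0.0056) for Arntl and -1.21 ± 0.26 (adjusted p = 0.00399) for Npas2. The Rora call was lost (0.29 ± 0.10, adjusted p = 0.0554). Over all genes, 1636 passed without these libraries and 7023 with them. Other values moved with this set. Its pituitary markers summed to 165900 to 196400 CPM in controls and 164200 to 179300 in stressed pituitaries, against at least 192600 in every other pituitary, with none of the 8 at 0. The 4 markers of posterior lobe or brain summed to 342.5 to 491.6 CPM in its controls and 374.2 to 432.4 in its stressed pituitaries, against 291.5 to 403.4 elsewhere, and none was at 0. The part of these markers and of the mitochondrial share in the differences was not tested.

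Differences were also found between the other control pituitaries. The 2M-12W controls differed from the mean of the other 3 control groups in 3 members (1 higher, 2 lower), where 2.9% of all genes passed. Nr1d1 was lower by -1.44 ± 0.12 (adjusted p = 1.86e-08), or 2.71-fold, and ranked 1 by p among all pituitary genes in this contrast too. Nr1d2 was lower by -0.47 ± 0.09 (adjusted p = 0.00199). Arntl was higher (0.39 ± 0.09, adjusted p = 0.0165), a call lost without 2M-12W control 3 (adjusted p = 0.0607) or 4 (0.107). These contrasts share controls with the 6M-12W contrast, since the other 3 groups then include 6M-12W. The 2M-8W controls differed in 1 member, Npas2 (0.59 ± 0.17, adjusted p = 0.0401), where 5.33% of all genes passed. That call was lost without any 1 of the 4 controls of 2M-8W, 2M-12W control 2 or 3, 6M-12W control 4 or 6M-8W control 1 or 4 (adjusted p = 0.0506 to 0.188), and without the 6M-12W controls 3 and 4 (0.0917). Rora lay at the threshold in this contrast (-0.26 ± 0.08, adjusted p = 0.0525) and passed with DESeq2 (0.0227), with RLE size factors (0.0468) and on leaving out 2M-8W control 1 or stressed 1 or 3, 2M-12W stressed 1 or 3, 6M-8W control 3, or 6M-12W control 1 or 2 or stressed 1 or 4 (adjusted p = 0.0154 to 0.049). In the 6M-8W controls 0 members passed in edgeR (3 with p below 0.05 before adjustment, 0 with DESeq2), where 1.01% of all genes did.

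**Figure D4:**
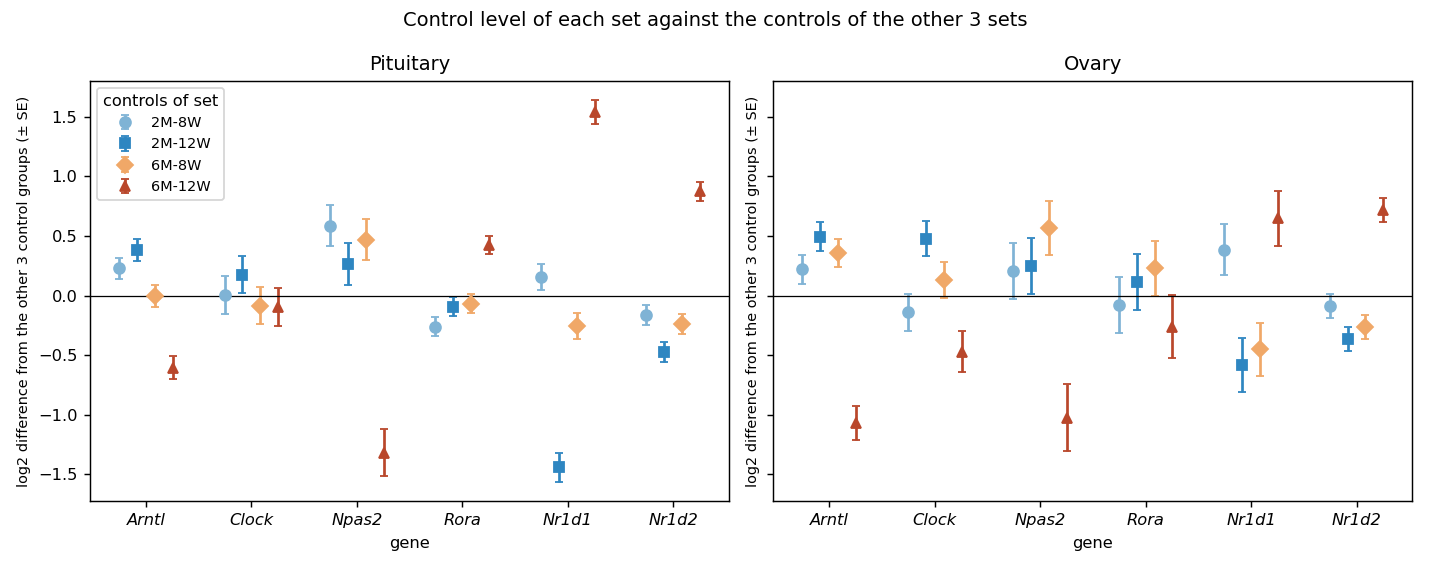
Log2 difference of each set's controls from the mean of the other 3 control groups, with its SE, for the 6 genes in pituitary and ovary, 1 symbol per set, and a line at 0. The 6M-12W controls in pituitary have Nr1d1 at 1.54 and Npas2 at -1.32, and the 2M-12W controls have Nr1d1 at -1.44.

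The ovaries of the 6M-12W controls differed in the same direction in 3 members (1 higher, 2 lower), where 4.8% of all genes passed. Arntl was at 15.2 to 19.7 CPM in these 3 ovaries and at 26.3 to 47.8 CPM (median 35.1) in the 12 other controls (-1.07 ± 0.15, adjusted p = 0.000115). Nr1d2 was at 181.5 to 205.6 CPM against 86.8 to 149.0 (median 111.1), with 0.72 ± 0.10 (adjusted p = 0.000176). Neither gene overlapped between these controls and the others, and how many other genes were separated likewise was not counted. Npas2 was at 3.31 to 5.75 CPM against 5.55 to 16.1 (median 9.15), and 2 of the 3 lay below all others (-1.02 ± 0.28, adjusted p = 0.0337). The Npas2 call was lost without any 1 of the 3 6M-12W controls or without 6M-8W control 1 (adjusted p = 0.0503 to 0.272). Nr1d1, at 110.5 to 158.3 CPM, lay inside the range of the other controls, 41.8 to 162.3 CPM (0.65 ± 0.23, adjusted p = 0.104). Without 2M-12W control 3 it passed (0.81, adjusted p = 0.00985). Rora (-0.26 ± 0.26, adjusted p = 0.617) and Clock (-0.47 ± 0.17, adjusted p = 0.116) did not pass.

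The 2M-12W control ovaries differed in 2 members, where 4.59% of all genes passed. Arntl was higher (0.49 ± 0.12, adjusted p = 0.0173) and Nr1d2 lower (-0.36 ± 0.10, adjusted p = 0.0362). The call of Arntl was lost without 2M-12W control 2 (adjusted p = 0.0838) or 4 (0.0914), and that of Nr1d2 without control 1, 2 or 4 (0.0923 to 0.107). Without control 3 of that group Nr1d1 passed, at -1.06 (adjusted p = 0.00368). No member passed in edgeR in the 2M-8W control ovaries (0 at an unadjusted p under 0.05, 0 with DESeq2, 3.14% of all genes) or in those of 6M-8W (3, 0 and 1.83%).

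The 6M-12W controls were then set against the stressed libraries of the other 3 sets, a comparison across sets that uses none of the controls of those sets. In the ovary 0 members passed in edgeR (3 with p below 0.05 before adjustment, 0 with DESeq2), where 11.6% of all genes passed. The Arntl levels of the 6M-12W controls lay within the range of 16.4 to 26.1 CPM of the 12 stressed ovaries in 2 of 3 libraries (-0.33 ± 0.14, adjusted p = 0.125). For Nr1d2, Npas2, Clock and Rora all 3 controls lay within the gene's own range in these 12 stressed ovaries, and for Nr1d1 2 of 3. How many other genes did so was not counted. In the pituitary 4 members passed (3 higher, 1 lower), where 43.2% of all genes did. Nr1d1 in the 4 controls lay within the range of 133.2 to 266.4 CPM of the 12 stressed pituitaries, with a difference of 0.14 ± 0.11 (adjusted p = 0.322) and a 95% interval of -0.08 to 0.35. Arntl lay above all 12 stressed pituitaries, which had 15.8 to 29.4 CPM (0.62 ± 0.09, adjusted p = 6.99e-06). Npas2 lay above their highest value of 3.29 CPM in 3 of 4 (0.95 ± 0.20, adjusted p = 0.000292). In these controls Nr1d1 was thus inside the stressed range of the other sets, and Arntl lay between their stressed and control ranges. Nr1d2 was lower than in the stressed (-0.21 ± 0.08, adjusted p = 0.0459) and Rora higher (0.35 ± 0.08, adjusted p = 0.000703). Both calls were lost without control pituitaries 3 and 4, at -0.32 ± 0.11 (adjusted p = 0.0513) and 0.21 ± 0.10 (adjusted p = 0.162). Arntl and Npas2 still passed without them, at 0.65 ± 0.12 (adjusted p = 0.00116) and 1.05 ± 0.25 (adjusted p = 0.00741). The Nr1d2 call was also lost with no filter on low counts (0.0537) and without 6M-12W control 1, 2 or 4, 2M-8W stressed 1 or 6M-8W stressed 3 or 4 (adjusted p = 0.0508 to 0.193).

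The stressed libraries of 6M-12W also differed from those of the other sets. In ovary Arntl (-0.61 ± 0.13, adjusted p = 0.00373), Npas2 (-0.79 ± 0.26, adjusted p = 0.0453) and Rora (-0.86 ± 0.25, adjusted p = 0.0251) were lower, 3 members where 10.6% of all genes passed. The Rora call was lost without any 1 of the 4 stressed 6M-12W ovaries (adjusted p = 0.0655 to 0.0786). The Npas2 call was lost without any 1 of 12 libraries, namely the 4 stressed of 6M-12W and its control 3, 2M-8W stressed 1 or 4, 2M-12W stressed 1 or 2 and 6M-8W stressed 1, 2 or 3 (adjusted p = 0.0503 to 0.132), and with no filter (0.0625). In pituitary 4 members passed (2 higher, 2 lower), where 35.3% of all genes did: Arntl (-0.39 ± 0.10, adjusted p = 0.00346), Npas2 (-0.99 ± 0.24, adjusted p = 0.00241), Nr1d2 (0.39 ± 0.08, adjusted p = 0.000447) and Rora (0.22 ± 0.08, adjusted p = 0.026). In the pituitaries of this set Arntl and Npas2 were therefore low and Nr1d2 high in both arms, compared with the same arm elsewhere. The pituitary Rora call was lost without 6M-12W stressed 2, 3 or 4, 2M-8W stressed 3 or 4 or 2M-12W stressed 3 (adjusted p = 0.0507 to 0.17).

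Ordered by group mean, pituitary Arntl ran from 16.4 ± 1.04 CPM (SD, n = 4) in the 6M-12W stressed through 18.9 ± 2.29, 20.2 ± 2.85 and 25.6 ± 4.89 in the stressed of 2M-8W, 2M-12W and 6M-8W. It then rose to 32.9 ± 1.45 in the 6M-12W controls and to 44.9 ± 3.83, 50.7 ± 3.99 and 55.0 ± 5.93 in the controls of 6M-8W, 2M-8W and 2M-12W. Neighbouring groups overlapped at every step except on either side of the 6M-12W controls. Nr1d1 ran from 41.7 ± 7.60 CPM in the 2M-12W controls to 219.3 ± 35.1 in the 2M-8W stressed, with the 6M-12W controls the second highest at 196.4 ± 23.2 and the 6M-12W stressed the fourth highest at 178.0 ± 21.2. In ovary the Arntl means ran from 14.1 ± 0.70 CPM in the 6M-12W stressed and 17.1 ± 2.33 (n = 3) in the 6M-12W controls, which did not overlap, to 38.6 ± 7.72 in the 2M-12W controls. The second gap without overlap lay between the stressed 6M-8W ovaries (24.2 ± 1.20) and the 2M-8W controls (33.5 ± 5.04).

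**Figure D5:**
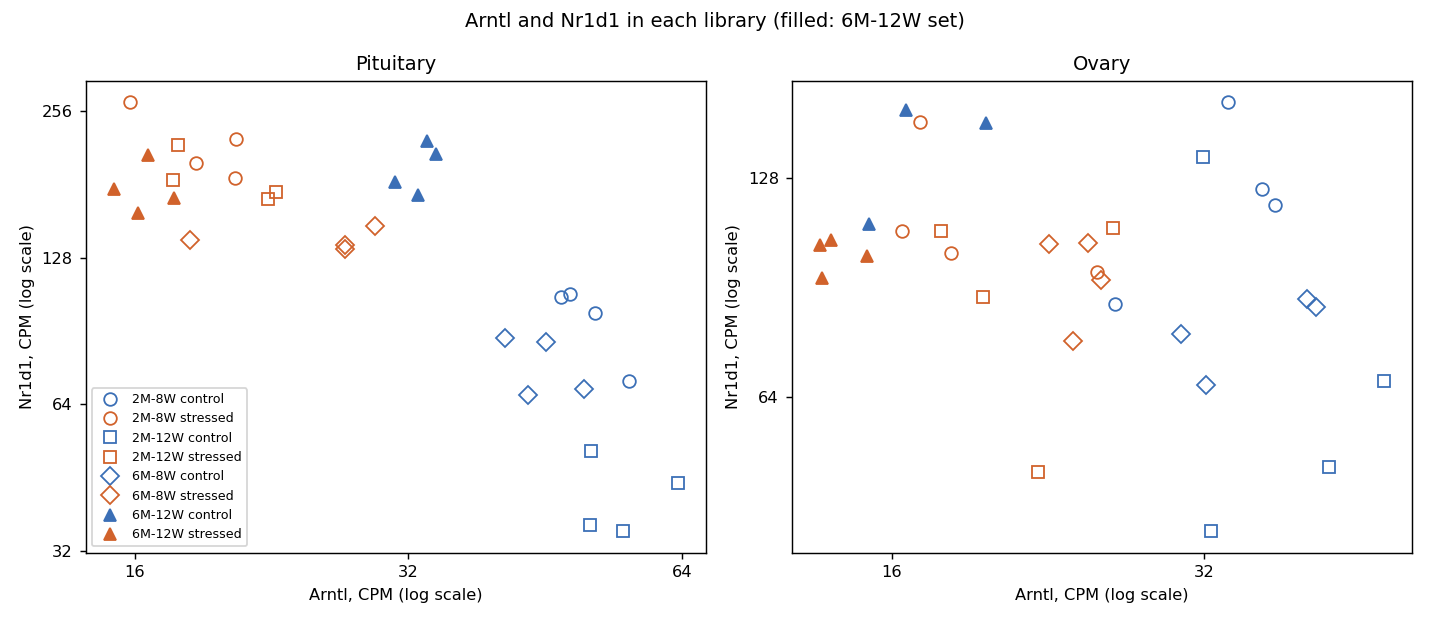
Arntl against Nr1d1 in CPM (both axes log) for every pituitary and ovary library, controls in blue and stressed libraries in orange, 1 symbol shape per set, with the 6M-12W set filled. The 6M-12W control pituitaries lie within the Nr1d1 range of the stressed libraries of the other sets, at 30.9 to 34.3 CPM of Arntl, above the stressed and below the other controls.

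The tissues were compared in 1 model of all 16 groups. Control levels differed between ovary and pituitary in 3 members, where 86.8% of all genes did: Arntl was lower in ovary (-0.83 ± 0.07, adjusted p = 4.29e-16), Nr1d2 was lower (-0.27 ± 0.06, adjusted p = 1.96e-05) and Rora was higher (0.28 ± 0.11, adjusted p = 0.0138). Levels between tissues depend on the scaling. With library totals alone the median difference of all genes moved from 0.039 to 0.272, and the Nr1d2 difference was -0.03 (adjusted p = 0.576). Without 6M-12W control ovary 2 that of Rora was 0.22 (adjusted p = 0.058). The stress effect, as the mean of the 4 sets, differed between the tissues in 5 members (2 higher in ovary, 3 lower), where 10.2% of all genes did. The falls of Arntl (0.55 ± 0.10, adjusted p = 8.03e-05, ovary minus pituitary) and Npas2 (1.24 ± 0.20, adjusted p = 1.66e-05) were smaller in ovary. So was the rise of Nr1d2 (-0.62 ± 0.08, adjusted p = 1.27e-07). For Nr1d1 the difference was -1.02 ± 0.15 (adjusted p = 3.58e-06), with an ovarian mean fold of -0.02. Rora fell in ovary relative to pituitary (-0.66 ± 0.15, adjusted p = 0.00208), and for Clock the difference was 0.23 ± 0.14 (adjusted p = 0.346). Of these 5 members, Rora alone moved further in ovary than in pituitary. The gap of the 6M-12W controls to the other controls differed between tissues in 1 member, Nr1d1, where 11.1% of all genes did. Its gap was smaller in ovary (-0.86 ± 0.26, adjusted p = 0.0257). That call was lost without 6M-12W control ovary 2 (adjusted p = 0.0655) or 3 (0.113), control pituitary 3 (0.103), or control pituitaries 3 and 4 together (-0.83 ± 0.30, adjusted p = 0.275).

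Whether members varied together within groups was examined on the deviations of log2 CPM from group means, which removes set and treatment. Of 30 relations (15 pairs in each tissue), 1 passed after adjustment. In ovary Arntl and Rora deviated together over 31 libraries (Pearson r = 0.693, permutation p = 0.0001, adjusted 0.003; Spearman rho = 0.742, permutation p = 0.0001, adjusted 0.003; two-sided). Without the 2 libraries farthest from the median of Arntl, r was 0.742. Within groups, pituitary Arntl and Nr1d1 had r = -0.318 (permutation p = 0.0639, adjusted 0.213; rho = -0.300, p = 0.13, adjusted 0.328) and Arntl and Nr1d2 r = -0.274 (permutation p = 0.161, adjusted 0.403; rho = -0.288, p = 0.131, adjusted 0.328). Neither relation passed the test among libraries of the same group.

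Over all libraries of a tissue, which share the group differences, the genes whose log2 CPM ran most like a member's were listed as a description. Among 13000 pituitary genes Arntl ran most like Leo1 (r = 0.885, 32 libraries), Fut2 and Tspan18, and most opposite to Dbp (r = -0.952), an output gene of the clock. Npas2 ran most like Plat (0.885), Fam101b and Col4a1 and most opposite to Bhlhe41 (-0.903), which encodes the repressor DEC2. Nr1d1 ran most like Dbp (0.877), Por and Bhlhe41, and Nr1d2 most like Bhlhe41 (0.924), Ccbe1 and Ciart. Clock, by contrast, had no gene above 0.587 (Gcnt1). Rora ran most like Fnip1 (0.905), Crebrf and Bicd1. Among 13015 ovary genes Arntl ran most like Hao2 (r = 0.876, 31 libraries), Nfil3 and Grm7 and most opposite to Tef (-0.894). Nr1d2 ran most like Per3 (0.834), Dbp and F8, Nr1d1 most like Wbp2 (0.789), Dbp and Jup, and Npas2 most like Slc22a15 (0.869), Radil and Apln. Ovarian Rora ran most like Nrn1 (0.943), Fads6 and Cdkn1b, and Clock most like Pigg (0.726). None of the 3 genes of highest r was shared between the tissues for Arntl, Npas2, Clock, Rora or Nr1d2, whereas Nr1d1 had Dbp in both.

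The rest of the loop was described by lists of other clock genes. Of 15 genes of the clock loop and its output, 9 rose and 1 fell in the stressed pituitary (mean of the 4 sets; median 0.38, against 0.001 over all genes, of which 6.44% passed), and 7 rose and 2 fell in the stressed ovary (median 0.24, against 0.008 over all genes, of which 20.3% passed). The pituitary genes with the smallest p were Dbp (1.87 ± 0.10, adjusted p = 1.52e-13), Tef (1.12 ± 0.07, adjusted p = 9.4e-13) and Ciart (1.99 ± 0.13, adjusted p = 6.57e-12), of which the first 2 encode PAR bZIP output factors and the third a repressor of BMAL1 and CLOCK. In ovary they were Per3 (0.60 ± 0.08, adjusted p = 1.36e-05), a period gene, Tef (0.47 ± 0.07, adjusted p = 2.39e-05) and Hlf (0.74 ± 0.10, adjusted p = 2.47e-05). In the 6M-12W controls against the other controls, 7 of the 15 were higher and 3 lower in pituitary (median 0.23, against 0.009 over all genes, of which 41.3% passed) and 5 higher and 1 lower in ovary (median 0.60, against -0.024, with 4.8% passing). Led by p these were Dbp (1.23 ± 0.16, adjusted p = 1.09e-06) and Bhlhe41 (0.70 ± 0.10, adjusted p = 2.55e-06) in pituitary and Per3 (0.88 ± 0.13, adjusted p = 0.000286), Tef (0.60 ± 0.11, adjusted p = 0.00258) and Hlf (0.81 ± 0.18, adjusted p = 0.00758) in ovary. Without the 6M-12W control pituitaries 3 and 4, where 1636 of all genes passed, 3 of the 15 were higher and 0 lower in the edgeR test. Before adjustment 10 had p below 0.05, and with all libraries and DESeq2 7 were higher and 3 lower. In ovary, the call of Tef was lost without 6M-12W control 1 (adjusted p = 0.09) and that of Hlf without control 1 (0.0819) or 3 (0.0635). Dbp, Per3 and Tef are, like Nr1d1 and Nr1d2, known targets of the activators.

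The partners through which the members act were described in the same way. With stress, as the mean of the 4 sets, 6.44% of all genes passed in pituitary and 20.3% in ovary. Of the 6 genes of the REV-ERB corepressor 1 rose in each stressed tissue, Gps2 (0.15 ± 0.04, adjusted p = 0.0221 in pituitary and 0.15 ± 0.04 (adjusted p = 0.00504) in ovary). In the 6M-12W control pituitaries, where 41.3% of all genes passed, 4 of the 6 were higher, Ncor1 (0.41 ± 0.06, adjusted p = 2.06e-06), Tbl1x (0.35 ± 0.06, adjusted p = 2.59e-05) and Gps2 (0.23 ± 0.07, adjusted p = 0.00482) among them. In the control ovaries of that set, where 4.8% of all genes passed, 0 of 6 did (1 at an unadjusted p under 0.05 in edgeR, 0 with DESeq2). Of 7 coactivators and NAD enzymes 1 rose in the stressed pituitary, Nampt (0.19 ± 0.04, adjusted p = 0.00489), the NAD-making enzyme that the clock drives. In the stressed ovary, where 20.3% of all genes passed, Sirt1 (0.27 ± 0.07, adjusted p = 0.0106), an NAD-dependent deacetylase, rose and Kat2b (-0.21 ± 0.05, adjusted p = 0.00198), an acetyltransferase, fell. In the 6M-12W controls 5 of the 7 were higher in pituitary, with Crebbp (0.59 ± 0.06, adjusted p = 9.65e-08), Ep300 (0.47 ± 0.06, adjusted p = 1.19e-06) and Nampt (0.35 ± 0.07, adjusted p = 0.000213) having the smallest p, and 1 in ovary, Crebbp (0.33 ± 0.09, adjusted p = 0.0371). Of 8 kinases and ubiquitin ligases that mark clock proteins, 0 passed in the stressed pituitary (1 at an unadjusted p under 0.05 in edgeR, 0 with DESeq2), and 1 rose and 1 fell in the stressed ovary. The gene that fell was Csnk1e (-0.21 ± 0.05, adjusted p = 0.00368), which phosphorylates PER. In the 6M-12W controls Gsk3b was higher in both tissues (0.58 ± 0.08, adjusted p = 1.19e-06 in pituitary, 0.27 ± 0.06 (adjusted p = 0.00734) in ovary), Csnk1d lower in pituitary (-0.32 ± 0.06, adjusted p = 0.000107) and Fbxw11 higher in ovary (0.17 ± 0.05, adjusted p = 0.0437). Without control pituitaries 3 and 4, 1636 of all genes passed in the 6M-12W controls. The counts were then 2 of 6 corepressor genes and 2 of 7 coactivators and NAD enzymes, with Gps2 at 0.09 (adjusted p = 0.515) and Nampt at 0.18 (adjusted p = 0.161). The Gps2 call there was also lost without control 3 alone (adjusted p = 0.103). In the 6M-12W control ovaries Gsk3b was lost without control 1 (adjusted p = 0.053) and Crebbp without control 1 (0.28) or 3 (0.13) or 6M-8W control 2 (0.056). The ovarian call of Fbxw11 had a small fold. It was lost without any 1 of 8 libraries, namely 6M-8W control 2 or stressed 1, 2M-12W control 2 or 3, 2M-8W control 3, and 6M-12W control 1 or 2 or stressed 2 (adjusted p = 0.0509 to 0.385). It also missed the threshold with no filter on low counts (adjusted p = 0.0654).

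Nr1d1 overlaps a gene on the other strand. Thra, which encodes thyroid hormone receptor alpha, covers 1075 bases of Nr1d1 on the plus strand, and their exons share 263 bases, or 8.55% of the exon bases of Nr1d1 in the annotation (GENCODE M21). Whether reads were counted by strand is not given in the sources used here, so reads from the shared stretch cannot be told apart. Annotated antisense genes also share 82 exonic bases with Rora (0.627%) and 33 with Arntl (0.439%). In the control pituitaries of 6M-12W, Thra was lower (-0.51 ± 0.08, adjusted p = 2.09e-05) while Nr1d1 was higher. Among the stress comparisons of the pituitary sets, Thra passed in 6M-8W alone, where it was lower (-0.39 ± 0.10, adjusted p = 0.017) and Nr1d1 rose. The call was lost without 6M-8W control 4 (adjusted p = 0.0745) or stressed 3 (0.0568) or 4 (0.0791). In ovary Thra was higher with stress in 2M-12W (0.29 ± 0.07, adjusted p = 0.0138) and 6M-12W (0.41 ± 0.08, adjusted p = 0.00242). Nr1d1 passed in neither in the model of all groups, with folds of 0.26 and -0.48. With the 2M-12W groups fitted alone, Thra missed the threshold (0.30, adjusted p = 0.077). The direction of the 2 genes was thus opposite in the 6M-12W control pituitaries and in 6M-8W pituitary stress. In ovarian stress their folds had the same sign in 2M-12W and opposite signs in 6M-12W. The part of shared reads in the Nr1d1 values was not tested.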

How the data were processed

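Bulk RNA was sequenced from 31 ovary and 32 pituitary samples. Per the labels, chloroform was used in RNA extraction and a NEBNext Ultra II kit for the libraries. Per the file headers, the tables that the authors deposited, 1 per tissue, hold raw counts and FPKM for each gene. Aligner, counter and strand setting: not given in the sources used here. Counts gave all tests. FPKM gave the order of levels between genes only. All columns were matched to labelled samples. Within groups, no pair of libraries held the same counts.

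Each tissue was fitted in 1 model of its 8 groups, and both tissues in 1 model of 16 groups for tissue differences, with edgeR 4.0.16 in R 4.3.3: filterByExpr, TMM scaling and the quasi-likelihood F test, with Benjamini-Hochberg adjustment over all genes and a threshold of 0.05. Log2 folds carry their SE, and levels are CPM after TMM scaling, apart from marker sums, which are CPM of the library total. The pipeline was tested on simulated data. The 6 members were named in every comparison. Per list and tissue, at most 3 other called genes with the smallest p were named (some are not reported here), and per member the 3 genes of highest and the 1 of lowest Pearson r of log2 CPM (prior count 2, mean log2 CPM of at least 1). The members, lists and tests were chosen with earlier results of these data known. Replicate numbers were not used to pair samples in the main fit, since the sources used here do not say that they mark shared animals. Alternatives were DESeq2 1.42.0, RLE size factors, no filter, fits of a set's own groups, a block for the replicate number, leaving out each library in turn, leaving out control pituitaries 3 and 4 of 6M-12W and, between tissues, library totals only or genes 100 times more abundant in one tissue left out.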

Additional observations from a re-analysis of the deposited data

Results flagged for a closer look

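Effects that differed between tissues or sets in a direct test were the following. The pituitary stress effect on Nr1d1 was lower in 6M-12W than in the mean of the other 3 sets (-1.54), and so was the ovarian effect on Nr1d2 (-0.78). Between tissues, as ovary minus pituitary, the mean stress effect differed by 0.55 for Arntl, 1.24 for Npas2, -0.66 for Rora, -1.02 for Nr1d1 and -0.62 for Nr1d2. The gap between the 6M-12W controls and the other controls differed by -0.86 for Nr1d1. All are log2 values past the threshold of 0.05 in edgeR.

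Single libraries stood apart from the other 3 of their group by Dixon's ratio at its 95% critical value in 4 of 90 gene and group combinations, where chance gives about 4.5. Rora was at 107.8 CPM in stressed ovary 1 of 2M-12W, and without that library the fall of Rora in this set passed. Clock was at 88.15 CPM in stressed ovary 1 of 6M-12W. Nr1d2 was at 141.8 CPM in control ovary 3 of 6M-8W. Rora was at 46.01 CPM in control pituitary 3 of 6M-8W, the 1 of these that was low.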

How the results depend on the processing

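Of 162 member folds in 27 comparisons, 67 passed the threshold with all libraries in edgeR. Of these, 43 passed under every alternative run, and none of the 67 changed sign. Counts of members past the threshold moved as follows, with the value of the model of all groups in brackets. With a set's own groups fitted alone, the ovarian stress counts were 0 for 2M-8W and 0 for 2M-12W (3 each) and 4 for 6M-12W (1), and the pituitary count in 6M-12W was 1 (3). With DESeq2 they were 2 in the 6M-8W ovary (1), 2 in the 2M-8W control pituitaries (1) and 2 for the pituitary stress effect of 6M-12W against the other sets (1). The 2M-8W control pituitaries also gave 2 with RLE size factors and 0 with no filter. Without the 6M-12W control pituitaries 3 and 4 this count was 0, that of the 6M-12W control against the other stressed pituitaries 2 (4), and that of the tissue difference in the 6M-12W control gap 0 (1).

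Leaving out 1 library at a time gave 1 to 3 members for ovarian stress in 2M-8W, 1 to 2 in 6M-8W and 0 to 1 in 6M-12W. It gave 0 to 3 for the 2M-12W control ovaries, 1 to 3 for the 6M-12W stressed against the other stressed ovaries, 0 to 1 for the ovarian stress effect of 6M-12W against the other sets, 0 to 2 for the 2M-8W control pituitaries and 0 to 2 for the tissue difference in the control gap. For the counts of 0 named in the paragraph before this one and those with the block below, edgeR gave 1 to 3 members with p below 0.05 before adjustment.

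Libraries that share a replicate number were correlated on their deviations from group means. Of these pairs 5 of 15 ovarian, 5 of 16 pituitary and 6 of 31 cross-tissue ones had r over 0.1, from -0.374 to 0.342. Libraries of unlike number were not compared, so these values cannot show whether a number pairs samples. With a replicate block the ovarian counts were 1 in 2M-8W, 0 in 6M-12W and 0 for the stress effect of 6M-12W against the other sets, and the tissue difference in the control gap gave 0. The mean ovarian fold of Nr1d1 was then 0.01.

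Of the folds that missed the threshold, 20 changed sign under an alternative. Those printed in the report that did so on leaving out 1 library were Clock in ovarian stress in 2M-8W (-0.08 to 0.14) and 6M-12W (-0.14 to 0.08), Clock in the 6M-12W control pituitaries (-0.26 to 0.01) and in pituitary stress in 6M-12W (-0.04 to 0.21), Nr1d1 in ovarian stress in 2M-8W (-0.26 to 0.06) and in the mean (-0.07 to 0.11), Npas2 (-0.22 to 0.17) and Rora (-0.05 to 0.40) in the 6M-12W control against the other stressed ovaries, and Rora in pituitary stress in 2M-8W (-0.04 to 0.07). With library totals only, the control difference between tissues became 0.06 for Clock, 0.07 for Npas2 and 0.18 for Nr1d1.

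Over all genes, the counts behind the percentages also moved. With DESeq2 the ovary gave 1699 genes in 2M-8W (1113 in edgeR), 598 in 6M-8W (199), 1013, 1235, 515 and 1393 for the controls of 2M-8W, 2M-12W, 6M-8W, 6M-12W in turn (557, 815, 326 and 852) and 1175 for the 6M-12W stress effect against the other sets (434). The pituitary gave 115 for 2M-8W stress (72), 228 for 2M-12W (99), 143 for 6M-12W (47), 1373, 834 and 344 for the first 3 control groups (907, 493 and 171) and 28 for the same stress effect (2). With no filter the ovary gave 84 in 6M-8W and 189 for the 6M-12W stress effect. With own groups only it gave at most 2 in 2M-8W and 2M-12W (1197) and 99 in 6M-8W, and the pituitary 18 in 2M-8W and 7 in 6M-12W. The replicate block gave 214, 770, 30 and 694 for ovarian stress in the same order of sets (2032 for 6M-12W without the block), 2 for the 6M-12W stress effect and 1016 for the control gap between tissues (2114). Without control pituitaries 3 and 4 the pituitary gave 186 in 2M-12W, 516 for the 2M-8W controls, 1966 for the 6M-12W controls against the other stressed (7339) and 8 for the 6M-12W stress effect, and the control gap 7. Npas2, with as few as 5 counts in a library, has the widest SE of the 6 in pituitary stress. The cause of these changes was not tested.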
